A study of Mus musculus with 6 samples.

Results

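Retinoid metabolism was followed through 9 genes in estrogen-receptor-negative (ER-) luminal cells of the mouse mammary gland with and without the transcription factor SOX9. The genes were the retinal dehydrogenases Aldh1a1, Aldh1a2 and Aldh1a3, the retinol dehydrogenase Rdh10, the retinal reductase Dhrs3, the membrane receptor Stra6, the retinoic acid carriers Crabp1 and Crabp2, and the retinoic acid hydroxylase Cyp26b1. They were found by symbol in the annotation of the array, among 19505 genes with 1 symbol, and each of the 9 had a single probe set. The Sox9 KO group was 3 female mice with floxed Sox9 on both alleles and the MMTV-iCre transgene. The WT group was 3 females with the same floxed alleles and no Cre. The mice were 8 to 12 weeks old and in diestrus, and the study states a mixed C57BL/6J x FVB/NJ background for its conditional knockouts. Cells were sorted from each mouse separately as negative for lineage markers and Sca1, high for EpCAM and low for CD49f. The Sox9 KO cells had to carry ECFP as well, the Cre reporter of the transgene, so genotype, Cre activity and this extra gate cannot be told apart. The MMTV promoter drives Cre in a part of the mammary epithelium only, in basal as well as in luminal cells.

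Retinol, or vitamin A, is bound in blood by a carrier and can enter cells through STRA6. RDH10 oxidises it to retinal, DHRS3 turns retinal back into retinol, and the ALDH1A enzymes oxidise retinal irreversibly to retinoic acid. CRABP2 hands retinoic acid to nuclear receptors, CRABP1 is linked to its retention and breakdown in the cytosol, and the CYP26 enzymes hydroxylate and so clear it. In the mammary gland, Aldh1a3 is widely used as a marker of luminal progenitors, and aldehyde dehydrogenase activity is measured to isolate progenitor-like cells.

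The signals were log2 values, in which a difference of 1 is a 2-fold difference. Sox9 itself was 6.73, 7.84 and 7.51 in Sox9 KO cells, against 11.60, 11.54 and 11.47 in WT cells, and fell with an adjusted p of 0.00867 in limma. Sox9 KO replicate 1 stood apart from the other arrays on the first principal component, with a score of 57.4 against -27.1 to 15.1. Of 10 listed ER- luminal markers, 8 were brighter on all 6 arrays than 95% of the negative control probe sets, among them Kit, Krt8 and Krt18. Of the markers of other cells, 8 of 12 basal, 6 of 9 fibroblast, 7 of 7 endothelial, 7 of 7 myeloid, 5 of 6 adipocyte and 5 of 9 ER-positive luminal markers were at or below that limit on every array. This limit, 7.75 to 8.58 depending on the array, is called the background bar here, and 67% of all tested probe sets lay at or below it on every array. The basal and fibroblast counts were near that share and the ER-positive luminal count was under it. Single markers lay well above the bar on some arrays, such as the adipocyte marker Fabp4 at 10.91 on WT replicate 1.

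The retinoid genes fell into 4 that were clearly above background on all 6 arrays, Crabp2, Aldh1a3, Rdh10 and Dhrs3, and 5 that were at or below it on all 6, Aldh1a1, Aldh1a2, Crabp1, Stra6 and Cyp26b1. Aldh1a3 was 2.11-fold lower in Sox9 KO cells and Rdh10 was 1.30-fold lower, and these were the 2 genes of the 9 whose groups did not overlap. Dhrs3 was 1.62-fold and Crabp2 1.27-fold higher on average, with overlapping groups. After adjustment over the 22206 tested probe sets, 0 of the 9 passed a threshold of 0.05 in limma, where 0.00901% of all probe sets did, and 2 had an unadjusted p under 0.05, both lower, where 9.26% of all did, 4.99% lower and 4.28% higher. That count was 0 to 3 over 13 alternatives, and 1 of the genes it held was higher in some of them. Non-overlapping groups were found for 14.1% of all probe sets, 7.3% lower and 6.85% higher. The median difference of the 9 was 0.18, against 0.01 over all tested probe sets, with 4 lower and 5 higher. In these sorted bulk samples fewer cells that carry a transcript and less transcript per cell cannot be told apart.

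**Figure D1:**
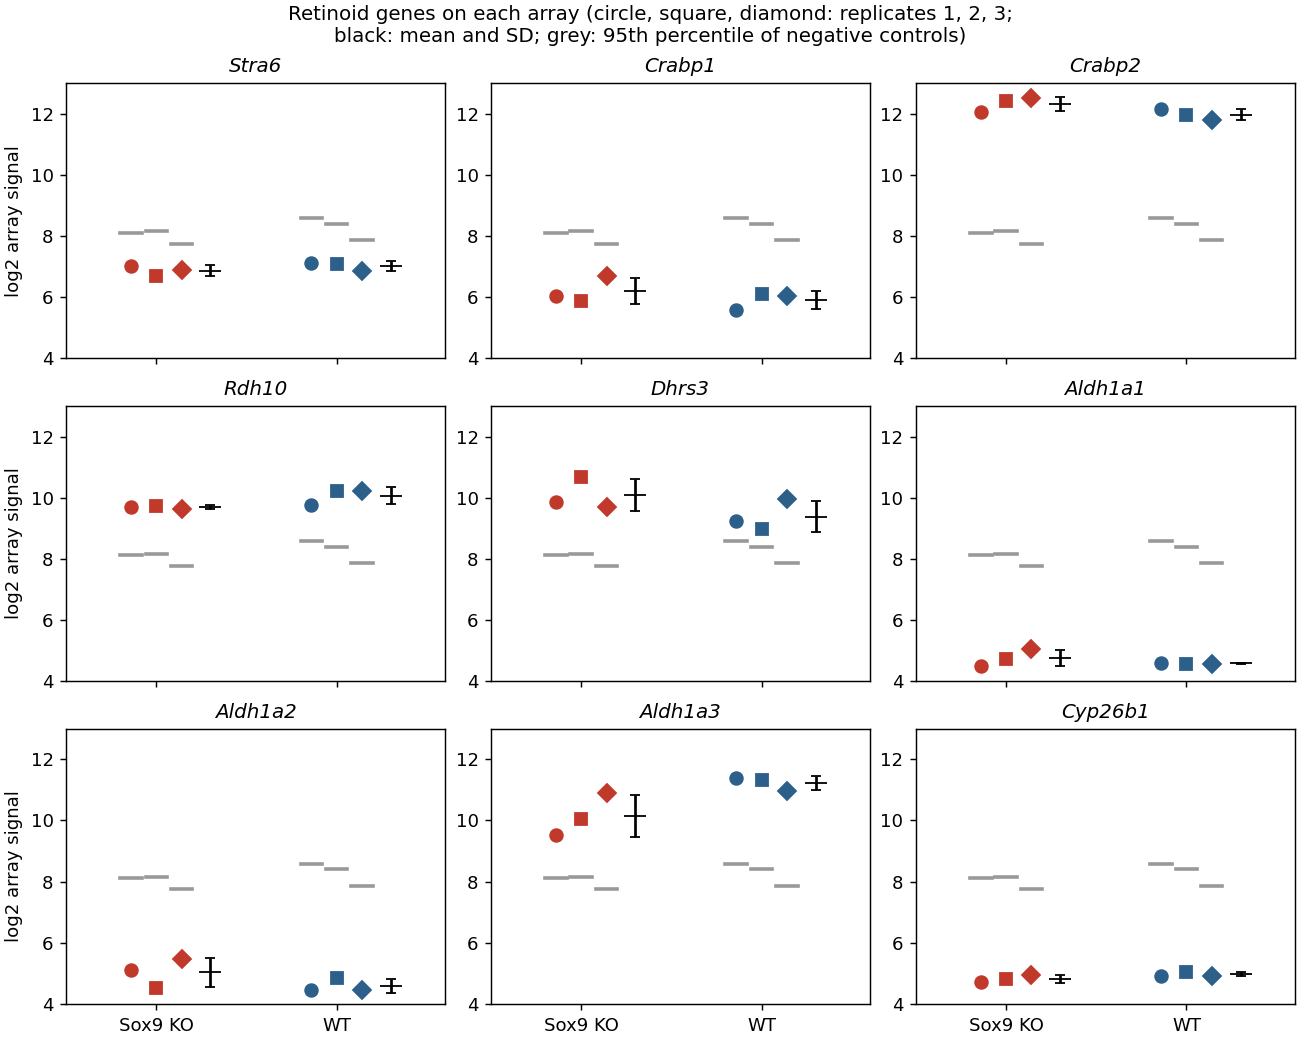
Log2 array signal (y axis) of the 9 retinoid genes on each of 3 Sox9 KO and 3 WT arrays, with the mean and SD of each group in black and the background bar of each array in grey. Aldh1a3 lay between 9.53 and 10.90 in Sox9 KO cells and between 10.97 and 11.40 in WT cells, and 5 of the genes lay under the background bar on every array.

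The ALDH1A enzymes make retinoic acid from retinal and differ in where they are used, Aldh1a2 being the main enzyme of the early embryo. Aldh1a3 had signals of 9.53, 10.05 and 10.90 in Sox9 KO cells, against 11.40, 11.34 and 10.97 in WT cells. Every Sox9 KO array was below every WT array, but Sox9 KO replicate 3 and WT replicate 3 were only 0.07 apart, and the Sox9 KO arrays spread over 1.37 where the WT arrays spread over 0.43. The means were 10.16 ± 0.69 in Sox9 KO and 11.24 ± 0.23 in WT (SD, n = 3 each). The difference was -1.08 (SE 0.33, 95% interval -1.83 to -0.32), with an unadjusted p of 0.0113 and an adjusted p of 0.392 in limma. It was therefore past a limit of at least 2-fold with an unadjusted p under 0.05, which 1.15% of all probe sets met, 0.545% lower and 0.608% higher, and short of the adjusted threshold. Dropping Sox9 KO replicate 1 gave -0.76 and dropping WT replicate 1 gave -0.99, both under 2-fold, while dropping Sox9 KO replicate 3 gave -1.45 (adjusted p 0.0927, in a range of 0.0927 to 0.852 over the alternatives).

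Other measures of the cells differed between the arrays as well. The array with the lowest Aldh1a3, Sox9 KO replicate 1, had the highest level of the listed cycling genes, whose mean stood 3.51 above the WT mean there, 1.19 and 0.13 above it on Sox9 KO replicates 2 and 3, and at 0.75, -0.36 and -0.39 relative to it on the WT arrays. Among the WT arrays, replicate 1 had both the highest Aldh1a3 and the highest cycling level. All 7 measured cycling genes were higher on average in Sox9 KO, and their mean level was 6.70 to 10.08 in Sox9 KO and 6.18 to 7.32 in WT. Mki67, a proliferation marker, was 10.76, 7.97 and 6.18 in Sox9 KO against 8.16, 5.85 and 5.84 in WT. Both Mki67 and the mean of the cycling list were above the background bar on Sox9 KO replicate 1 only. The WT array with the lowest Aldh1a3, WT replicate 3, had the highest ER-positive luminal marker level, with Foxa1, a factor of that lineage, at 8.35 there and at 4.99 to 5.68 on the other arrays. The mean level of those 9 markers was 6.75 to 6.92 in Sox9 KO and 6.83 to 8.07 in WT, and Esr1, the estrogen receptor itself, stayed between 5.73 and 6.63 on all arrays, below the background bar. The ER- luminal markers differed too: their mean level over 10 genes was 10.87, 11.14 and 11.09 in Sox9 KO cells, against 11.20, 11.48 and 11.76 in WT cells, with 8 of 10 lower, while the basal list had 6.67, 6.97 and 7.0 in Sox9 KO and 5.96 to 6.51 in WT. Within the basal list Krt14, a basal keratin, was 11.08, 10.85 and 10.63 in Sox9 KO cells, against 8.59, 7.30 and 8.95 in WT cells, a difference of 2.57 (SE 0.39, adjusted p 0.196) that was larger in size than that of Aldh1a3. Trp63, the basal lineage factor p63, was 8.76, 8.74 and 8.27 in Sox9 KO cells, against 7.33, 5.72 and 6.74 in WT cells, where it was below the background bar. Neither gene's groups overlapped, and 4 of the 12 basal markers were higher without overlap, where 6.85% of all probe sets were. Of these 4, Snai2 was below the background bar on every array and Krt17 was above it on Sox9 KO replicate 3 only. Of the 12, 9 had the higher mean in Sox9 KO and 3 the lower. Acta2, Myh11, Cnn1 and Mylk of this list differed by 0.1, -0.03, 0.06 and -0.06, with overlapping groups and signals below the background bar on every array. The part of these marker lists in the Aldh1a3 difference was not tested. Among the 10 ER- luminal markers 3 were lower without overlap, where 7.3% of all probe sets were, and 0 were higher without overlap. These were Krt8 (difference -0.25), Krt18 (-0.23) and the integrin Itga2. Itga2 was 9.89, 9.75 and 9.51 in Sox9 KO against 10.88, 10.82 and 10.39 in WT. The receptor Kit was 11.91, 12.13 and 11.18 in Sox9 KO against 11.72, 11.53 and 11.34 in WT, with overlapping groups.

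Aldh1a1 and Aldh1a2 were near the middle of the negative controls on most arrays. Aldh1a1 had signals of 4.50, 4.73 and 5.04 in Sox9 KO cells, against 4.60, 4.56 and 4.57 in WT cells, above 40.6% to 63.6% of the negative controls of the same array. The difference was 0.18 (SE 0.16, 95% interval -0.20 to 0.56), and the groups overlapped. Aldh1a2 had signals of 5.10, 4.52 and 5.46 in Sox9 KO cells, against 4.46, 4.85 and 4.44 in WT cells, above 37.4% to 71% of the negative controls. The difference was 0.44 (SE 0.25, 95% interval -0.13 to 1.02), and dropping Sox9 KO replicate 3 gave 0.23, dropping Sox9 KO replicate 2 gave 0.70. At signals this low no fold change can be given for either gene, and neither was detectable over background at this signal. Sox9 KO replicate 3, where both signals were highest though still below the background bar, had the highest mean level of the 9 measured fibroblast markers, 7.12, where the other Sox9 KO arrays had 5.60 and 5.73 and the WT arrays 5.55 to 6.07. On that array the matrix genes Dcn and Dpt reached 10.56 and 9.14, against 7.72 to 9.60 and 5.19 to 6.20 on the WT arrays. The part of fibroblasts in the Aldh1a1 and Aldh1a2 signals was not tested.

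Rdh10 and Dhrs3, among 18 measured oxidoreductases of retinol and retinal, encode enzymes of opposed direction. Their mean differences had opposite signs, and neither passed the adjusted threshold. Rdh10, the oxidising enzyme, had signals of 9.71, 9.73 and 9.62 in Sox9 KO cells, against 9.76, 10.23 and 10.22 in WT cells. The Sox9 KO arrays lay within 0.11 of each other, and WT replicate 1 was only 0.03 above the highest of them. The difference was -0.38 (SE 0.16), with an unadjusted p of 0.0489 and an adjusted p of 0.536 in limma. Dropping WT replicate 1 gave -0.54 with an unadjusted p of 0.00837, and dropping any of the other 5 arrays gave an unadjusted p of 0.0787 to 0.154. Over all 13 alternatives the unadjusted p was under 0.05 in 3.

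Dhrs3, the reducing enzyme, which retinoic acid is known to induce, had signals of 9.87, 10.68 and 9.68 in Sox9 KO cells, against 9.24, 8.96 and 9.94 in WT cells. WT replicate 3 lay above 2 of the Sox9 KO arrays, so the groups overlapped. The means were 10.08 ± 0.53 in Sox9 KO and 9.38 ± 0.50 in WT (SD, n = 3 each), and the difference was 0.70 (SE 0.33, 95% interval -0.06 to 1.45, adjusted p 0.57 in limma). Dropping Sox9 KO replicate 2 gave 0.39 and dropping WT replicate 3 gave 0.98 (unadjusted p 0.0165).

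**Figure D2:**
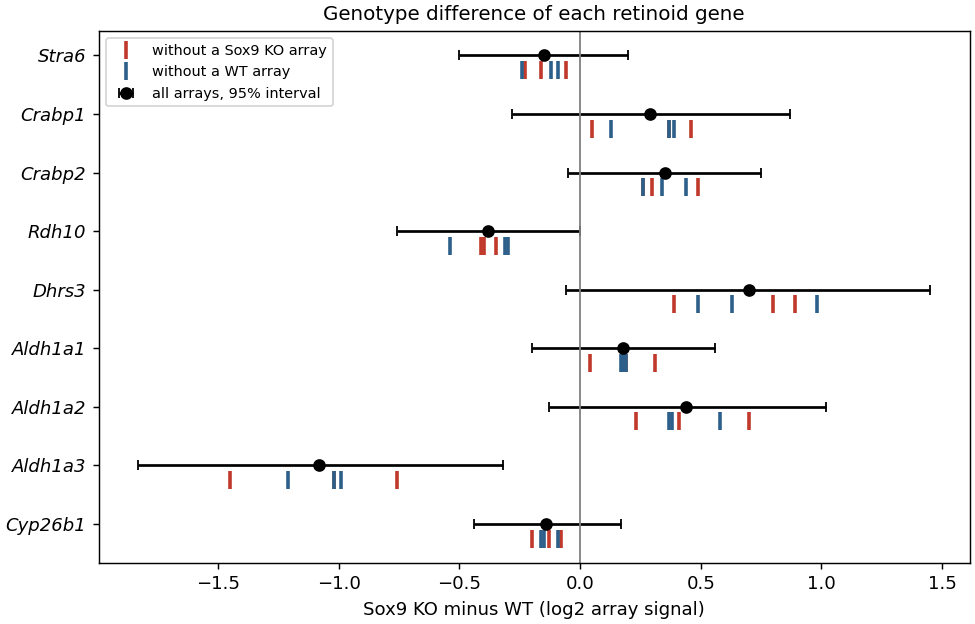
Sox9 KO minus WT difference of each retinoid gene on the log2 scale (x axis), with the 95% interval of the limma fit in black and the difference without each single array as coloured ticks. Aldh1a3 had the most negative value, -1.08, and the interval of Rdh10 ended just below 0, while the other 7 intervals included 0.

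Of the carriers, Crabp2 was well above background and Crabp1 was not. Crabp2 had signals of 12.05, 12.42 and 12.50 in Sox9 KO cells, against 12.16, 11.96 and 11.80 in WT cells. Sox9 KO replicate 1 lay below WT replicate 1 and the other Sox9 KO arrays lay above all WT arrays. The difference was 0.35 (SE 0.17, 95% interval -0.05 to 0.75, adjusted p 0.59), and 0.49 without Sox9 KO replicate 1 (unadjusted p 0.0218). Crabp1 had signals of 6.04, 5.86 and 6.69 in Sox9 KO cells, against 5.57, 6.09 and 6.05 in WT cells, with overlapping groups and a difference of 0.29 (SE 0.25, 95% interval -0.28 to 0.87). Fabp5, a carrier that passes retinoic acid to the receptor PPARD, was above background on all arrays, at 10.51, 10.61 and 10.77 in Sox9 KO and 10.75, 10.35 and 9.97 in WT, a difference of 0.27 (SE 0.21).

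Stra6 and Cyp26b1, which stand at the entry and the exit of the pathway, were at or below the background bar on every array, and their groups overlapped. Stra6 had signals of 7.02, 6.69 and 6.89 in Sox9 KO cells, against 7.13, 7.08 and 6.84 in WT cells, above 83.4% to 89.4% of the negative controls. The difference was -0.15 (SE 0.15, 95% interval -0.50 to 0.20). Cyp26b1 had signals of 4.71, 4.82 and 4.96 in Sox9 KO cells, against 4.92, 5.05 and 4.93 in WT cells, a difference of -0.14 (SE 0.13, 95% interval -0.44 to 0.17). For both genes the difference between the means was smaller than the range of the Sox9 KO arrays. The other clearing enzymes, Cyp26a1 and Cyp26c1, were also below the bar on every array, with differences of -0.24 (SE 0.18) and 0.09 (SE 0.18).

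No array was lowest for more than 1 of the 4 genes above background, and none was highest for more than 1. Aldh1a3 was lowest on Sox9 KO replicate 1 and highest on WT replicate 1, Dhrs3 was highest on Sox9 KO replicate 2 and lowest on WT replicate 2, Crabp2 was highest on Sox9 KO replicate 3 and lowest on WT replicate 3, and Rdh10 was lowest on Sox9 KO replicate 3 and highest on WT replicate 2.

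The wider set of retinoid genes, listed by role from textbook knowledge, had 71 measured genes of 81 and no common direction. Sox9 KO had the lower mean for 33 of these and the higher mean for 38, and their median difference was 0.03, set beside 0.01 over all probe sets. In limma 0 passed the adjusted threshold, 5 were lower and 3 higher at an unadjusted p under 0.05, beside 9.26% of all probe sets, so 8 of 71 was near the background share. Past 2-fold with an unadjusted p under 0.05 in limma were Aldh1a3 and Rara, both lower, and Cyp1b1, higher, beside 1.15% of all probe sets. Cyp1b1 is counted by its log2 difference only, and no fold is given, since its WT signals lay below the background bar. At or below the background bar on every array were 47 of the 71, near the 67% of all probe sets, and 10 of the 12 measured carriers and uptake genes.

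Among the receptors, Rara, the retinoic acid receptor alpha, had signals of 7.61, 8.41 and 9.18 in Sox9 KO cells, against 9.65, 9.44 and 9.71 in WT cells. All Sox9 KO arrays were below all WT arrays, and the array lowest for Rara, Sox9 KO replicate 1, was also the lowest for Aldh1a3 and lay under the background bar for Rara. The difference was -1.20 (SE 0.35, 95% interval -2.02 to -0.38), a 2.30-fold lower signal, with an unadjusted p of 0.00973 and an adjusted p of 0.375 in limma. Dropping Sox9 KO replicate 1 gave -0.80, which is under 2-fold. In the Sox9 KO arrays the order of Rara was the reverse of that of the cycling genes. Among the WT arrays Rara was lowest on replicate 2, while the mean cycling level, below the background bar on all of them, was highest on replicate 1. The part of the cycling genes was not tested. Rarg, the receptor of the same family with signals above background throughout, had 10.42, 10.62 and 10.43 in Sox9 KO cells, against 10.37, 10.53 and 10.37 in WT cells. Its difference was 0.07 (SE 0.13, 95% interval -0.24 to 0.37), so a change of Rarg as large as the mean difference of Rara lay outside the interval. Rarb was below the bar on all arrays with a difference of -0.15 (SE 0.15). Of the RXR partners, Rxrb was above background and differed by 0.40 (SE 0.23, 95% interval -0.15 to 0.95), while Rxra (0.37, SE 0.17) and Rxrg (0.43, SE 0.14, unadjusted p 0.0173, adjusted p 0.416) were below the bar on all arrays.

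**Figure D3:**
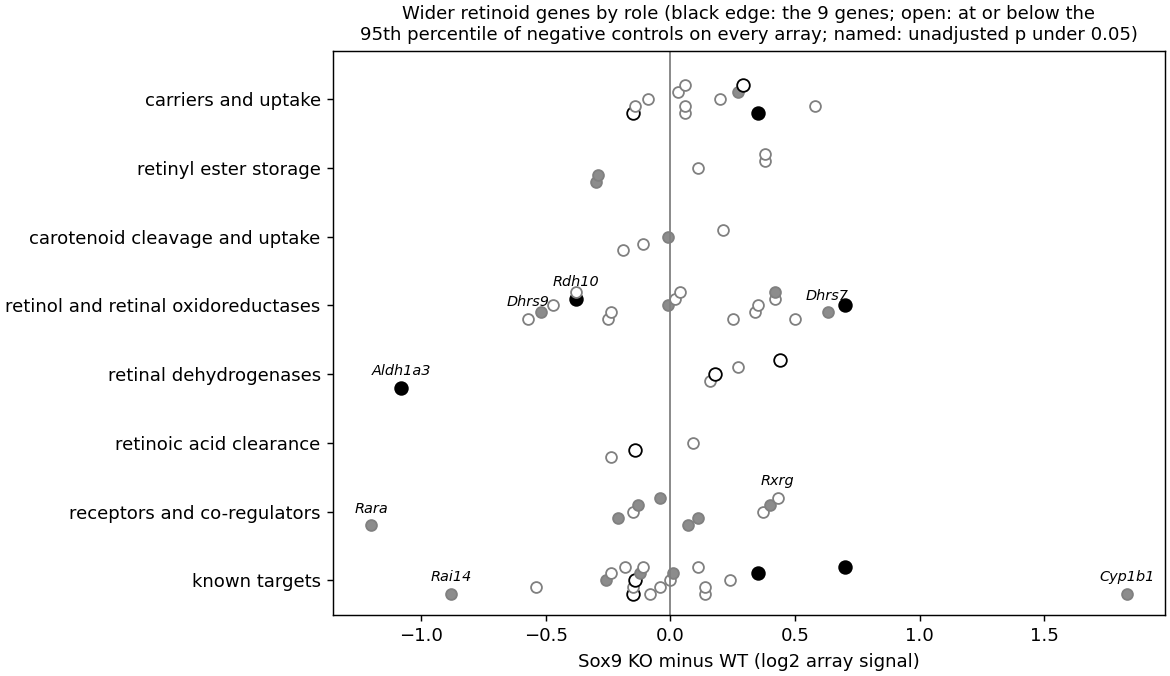
Sox9 KO minus WT difference on the log2 scale (x axis) of the 71 measured retinoid genes, grouped by role, where a gene with 2 roles is drawn under both. Black edges mark the 9 genes, open circles mark genes at or below the background bar on all arrays, and genes with an unadjusted p under 0.05 are named, with Rara at -1.20, Aldh1a3 at -1.08 and Cyp1b1 at 1.83, the last against WT signals below the background bar.

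Of the 21 measured response genes, 0 passed the adjusted threshold in limma, and 1 was lower and 1 higher at an unadjusted p under 0.05. That was near the background share, since 9.26% of all probe sets had such a p. Cyp1b1, a cytochrome P450 that can also oxidise retinol and retinal, had signals of 8.70, 8.40 and 7.54 in Sox9 KO cells, against 6.73, 6.69 and 5.74 in WT cells, a difference of 1.83 (SE 0.36, unadjusted p 0.0011, adjusted p 0.205). It was below the background bar on all 3 WT arrays and on Sox9 KO replicate 3, and its Sox9 KO mean of 8.21 did not exceed the mean bar of the WT arrays, 8.28, so no fold can be given. Rai14, an actin-associated protein named for its induction by retinoic acid, had signals of 9.12, 8.96 and 8.76 in Sox9 KO cells, against 9.51, 10.19 and 9.78 in WT cells, a difference of -0.88 (SE 0.20, unadjusted p 0.00245, adjusted p 0.266). The whole list of 21 measured response genes had a median of -0.08, with 13 lower, where the median over all probe sets was 0.01. Among the oxidoreductases, Dhrs7 had signals of 8.80, 8.74 and 9.0 in Sox9 KO cells, against 8.64, 8.14 and 7.87 in WT cells, a difference of 0.63 (SE 0.21, unadjusted p 0.0172). Dhrs9 differed by -0.57 (SE 0.21) below the bar, and Dhrs4 by 0.42 (SE 0.21). The genes of retinyl ester storage (Ces1d 0.38, Dgat1 -0.29 and Awat2 0.38) and of carotenoid cleavage and uptake (Isx 0.21, Bco2 -0.19 and Bco1 -0.11) held 0 with an unadjusted p under 0.05. The other carriers with the smallest p were the lipase Lpl (0.20, SE 0.17) and Rbp7 (0.58, SE 0.71), and of the other response genes the homeobox factor Meis1 differed by -0.54 (SE 0.37).

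The aldehyde dehydrogenases other than Aldh1a1, Aldh1a2 and Aldh1a3, Aldh1a7 among them, were mostly near background. Of 18 measured, 15 were at or below the bar on all arrays, 10 had a higher mean in Sox9 KO, and the median was 0.06. Aldh3b2, which acts on long-chain lipid aldehydes, had signals of 7.98, 7.62 and 7.72 in Sox9 KO cells, against 6.60, 6.97 and 6.71 in WT cells. Its groups did not overlap and the difference was 1.01 (SE 0.16, unadjusted p 0.000278, adjusted p 0.196 in limma), but all 6 signals lay below the background bar, so no fold can be given. Aldh18a1, an enzyme of proline synthesis, was 9.71, 9.85 and 9.17 in Sox9 KO, against 10.05, 10.24 and 9.96 in WT, a difference of -0.51 (SE 0.20, adjusted p 0.494). Aldh3b3, a relative of Aldh3b2, differed by 0.58 (SE 0.24) below the bar. The retinal dehydrogenase relatives Aldh8a1 and Aldh1a7 differed by 0.27 (SE 0.13) and 0.16 (SE 0.16), below the bar on all arrays.

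The genes whose profile over the 6 arrays was closest to that of Aldh1a3, by the root mean square distance between log2 profiles centred on their own means, were Fam83a (distance 0.0979), Nqo1 (0.134), Piezo1 (0.145), Bglap2 (0.146) and Abtb2 (0.165). Fam83a had 8.65, 8.97 and 9.87 in Sox9 KO cells, against 10.31, 10.13 and 9.89 in WT cells, and like Aldh1a3 it was lowest on Sox9 KO replicate 1 with Sox9 KO replicate 3 close to WT. The antioxidant enzyme Nqo1 had the same order of Sox9 KO arrays but was below the background bar on every array. For Rdh10, the gene with the next smallest p among the 9, the closest were Oas1g (0.031), Btg1 (0.0419), Sohlh1 (0.0464), Sesn2 (0.0481) and Kansl2 (0.0521), of which Btg1 and Kansl2 were above background on all arrays. These distances were taken over 6 arrays and 19505 genes, so close profiles are to be found for many genes, and they are given as a description.

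**Figure D4:**
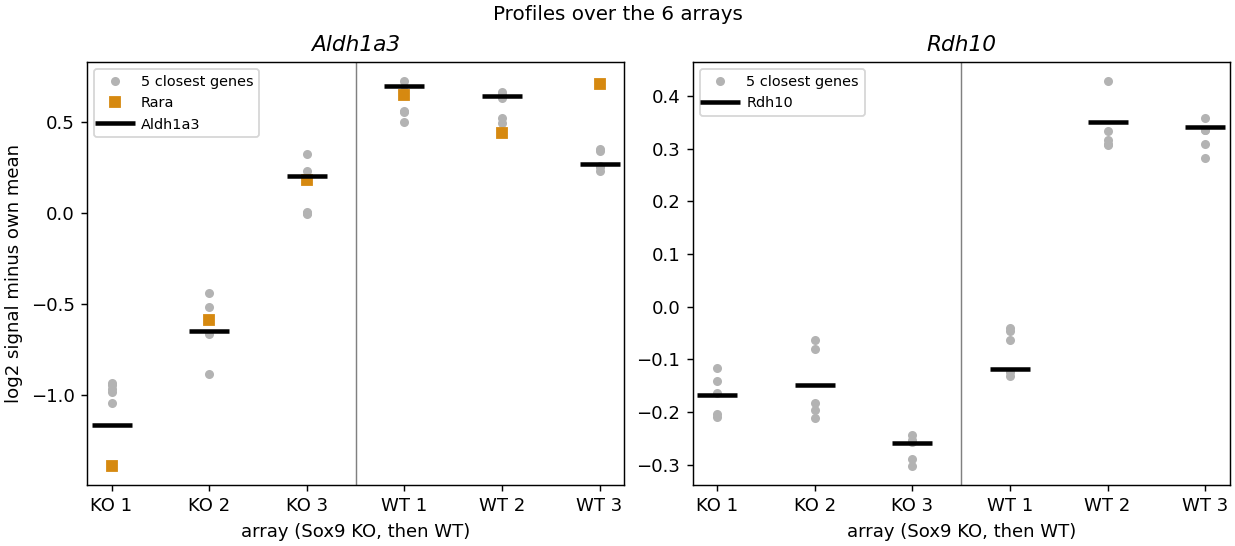
Log2 signal minus the gene's own mean over the 6 arrays (y axis) on each array (x axis, KO for Sox9 KO), for Aldh1a3 (left, black bars) and Rdh10 (right, black bars) with the 5 genes of the closest profile in grey and Rara as squares. Aldh1a3 and Rara were both lowest on Sox9 KO replicate 1, and Rdh10 on WT replicate 1 lay with the Sox9 KO arrays.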

How the data were processed

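RNA of the sorted cells was measured on 6 Affymetrix Clariom S Pico mouse arrays, 3 per genotype, each from a separate mouse. The authors used Affymetrix Expression Console and Transcriptome Analysis Console, and the values they deposited are log2 signals, a scale read from the values. How background was corrected and arrays were normalized is not stated in the sources at hand. Of 28846 rows, 6640 array controls were left out, leaving 22206 probe sets, of which 19572 have 1 symbol in the platform annotation, 0 several and 2634 none. Symbols were brought up to date through gene identifiers and a RefSeq table. Of several probe sets of a gene, the one with the highest mean was used. The background bar is the 95th percentile of 5222 negative controls on each array. The number of arrays limits the precision.

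Differences (Sox9 KO minus WT, two-sided) come from lmFit and eBayes of limma 3.58.1 (R 4.3.3) over all 6 arrays, with no covariates. P-values were adjusted by Benjamini-Hochberg across all 22206 probe sets, with 0.05 as the threshold, and differences of at least 2-fold with an unadjusted p under 0.05 were also counted. In simulations, 200 probe sets among the 22206 were given a known difference. When that log2 difference was 1, the fit found 64.5% of the 200 and made 8 false calls. When it was 2, the fit found 99% and made 15 false calls. These shares describe the simulated data and need not hold for the arrays. On the arrays 2 probe sets passed the adjusted threshold, and Krt14, with a difference of 2.57, did not (adjusted p 0.196 in limma).

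The 9 genes, the lists and the tests were chosen with earlier results of these data known. Named besides the 9 were Sox9, up to 3 genes per role with the smallest unadjusted p, the retinoic acid receptors and Fabp5, and the 5 genes of closest profile; marker genes given with values were chosen after their values were seen. The fit was repeated under 13 alternatives: median centring, quantile normalization, removal of probe sets whose mean is not above the median of the means, trended and robust variance, array weights, a block for the replicate number, the t-test of the methods, and leaving out each array in turn.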

Additional observations from a re-analysis of the deposited data

How the results depend on the processing

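All 113 refits of the differences of the 9 genes kept the direction and stayed short of the adjusted threshold, and Aldh1a1, Aldh1a2, Crabp1 and Cyp26b1 had no value once dim probe sets were left out. Leaving out single arrays gave -1.45 to -0.76 for Aldh1a3, -0.54 to -0.30 for Rdh10, 0.39 to 0.98 for Dhrs3, 0.26 to 0.49 for Crabp2, 0.23 to 0.70 for Aldh1a2, 0.04 to 0.31 for Aldh1a1, 0.05 to 0.46 for Crabp1, -0.24 to -0.06 for Stra6 and -0.20 to -0.08 for Cyp26b1. The number of the 9 with an unadjusted p under 0.05 was 0 with the methods' t-test, 3 with array weights (2 lower, 1 higher) and 1 with quantile normalization, with the replicate block, without dim probe sets and without WT replicate 2, against 2. Aldh1a3 stayed past 2-fold with an unadjusted p under 0.05 in 10 of 13 alternatives, not with the methods' t-test (unadjusted p 0.0629) nor without Sox9 KO replicate 1 or WT replicate 1. The deviations of same-numbered arrays had correlations of 0.119, -0.0336 and 0.0335, and those of other pairs lay between -0.158 and 0.145. This gave no sign of pairing by replicate number, but 3 arrays per group cannot exclude it. With the replicate block Aldh1a3 differed by -1.08 (adjusted p 0.397 in limma). Probe sets past the adjusted threshold then numbered 0, against 2 without the block, and those past 2-fold 361, against 256. The methods' t-test gave 0 and 145, and 1 of the wider retinoid genes past 2-fold, which was Cyp1b1. Leaving out single arrays gave 0 to 20 adjusted calls (20 without Sox9 KO replicate 3, and 11 when Sox9 KO replicate 1 was dropped) and 213 to 581 past 2-fold (581 without Sox9 KO replicate 3). Of the wider retinoid genes it left 1 to 3 past 2-fold, and the 1 left without Sox9 KO replicate 1 was again Cyp1b1. The adjusted p of Sox9 was 0.0505 with the block, 0.467 with the t-test and 0.0627, 0.147 and 0.0943 without WT replicates 1, 2 and 3. The median of the wider retinoid genes changed sign to -0.015 with median centring and -0.013 without dim probe sets, and lay at -0.028 to 0.062 with single arrays left out; the cause was not tested. Averaging the probe sets of a gene was not run, since every measured gene of the 9 and of the wider list has 1. Signal over background limits 5 of the 9 genes.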
